A study of Mus musculus with 4 samples.

Results

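The myosin heavy chains and sarcomeric actins of the heart were followed in pressure-overloaded and control mouse hearts. The 5 genes are Myh6, Myh7, Myh7b, Acta1 and Actc1, of 21658 genes that could be named on the array. Every probe whose accession is a transcript of these genes was taken, which gave 6 of 55681 probes, with 2 for Myh6 and 1 for each other gene. Hearts of male C57BL/6J mice were taken 2 and 8 weeks after transverse aortic constriction (TAC), in which the aortic arch is narrowed so that the left ventricle pumps against a raised load, or after sham surgery without it. Each of the 4 conditions (sham 2 weeks, TAC 2 weeks, sham 8 weeks, TAC 8 weeks) was 1 array of RNA pooled from 4 to 6 mice. The labels give an age of 10 weeks for both groups at 2 weeks and of 16 weeks for both groups at 8 weeks, whereas the methods of the study place surgery at 12 weeks of age. With 1 array per condition there was no replicate check, and no test was made. The spread between mice was not measured, and every change below is the difference between pools.

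Myosin heavy chains are the motor subunits of the thick filament, and alpha actins form the thin filament on which they pull. In the adult mouse ventricle the fast alpha chain, encoded by Myh6, is the main motor, while the slower beta chain, encoded by Myh7, dominates before birth. Myh7b encodes a related chain of older origin. Actc1 encodes cardiac alpha actin, the main actin of the adult heart, and Acta1 encodes skeletal alpha actin, which the heart uses more before birth. A return of Myh7 and Acta1 under load is a long-known part of the fetal gene program of cardiac hypertrophy.

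Myh6 lies on chromosome 14 from 54941921 to 54968017 and Myh7 from 54970684 to 54994626, both on the minus strand and 2666 bases apart (GRCm38.p6). Myh7b lies on chromosome 2 from 155611243 to 155634307, Actc1 on chromosome 2 from 114047282 to 114052875, and Acta1 on chromosome 8 from 123891758 to 123894775. The coding sequences of Myh6 and Myh7 were 91.7% identical, and their transcripts shared an unbroken run of 245 bases. Those of Acta1 and Actc1 were 86.2% identical, with a longest shared run of 29 bases. Myh7b was 73.9% identical to Myh6 and 74.0% to Myh7. Probe sequences are not used here, so the part of each transcript that a probe reads was not checked.

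Each of the 3 myosin genes holds a muscle microRNA in an intron, and the mature sequences from RefSeq (GRCm38.p6) are shown because each is made from the RNA of its host gene. The seed, bases 2 to 8, is in capitals.
mmu-miR-208a-3p: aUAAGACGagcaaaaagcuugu
mmu-miR-208b-3p: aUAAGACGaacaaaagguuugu
mmu-miR-499-5p: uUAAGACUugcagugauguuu
The first lies in intron 29 of Myh6 and the next in intron 31 of Myh7, and they carry the same seed. The third lies in intron 19 of Myh7b, and its seed is that of the others up to the last base. The arrays did not measure the mature microRNAs themselves.

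The bases before the transcription start (RefSeq, GRCm38.p6) are shown for the pair of genes that differed most between TAC and sham hearts, Acta1 and Myh7, and for their adult partners Actc1 and Myh6. Motifs found by search are in capitals.
Acta1, chr8:123894776-123895025, minus strand: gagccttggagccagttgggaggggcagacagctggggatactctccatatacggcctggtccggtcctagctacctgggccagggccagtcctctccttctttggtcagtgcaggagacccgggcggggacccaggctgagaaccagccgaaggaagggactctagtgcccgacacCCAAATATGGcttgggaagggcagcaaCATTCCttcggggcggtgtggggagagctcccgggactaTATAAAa
Actc1, chr2:114052876-114053125, minus strand: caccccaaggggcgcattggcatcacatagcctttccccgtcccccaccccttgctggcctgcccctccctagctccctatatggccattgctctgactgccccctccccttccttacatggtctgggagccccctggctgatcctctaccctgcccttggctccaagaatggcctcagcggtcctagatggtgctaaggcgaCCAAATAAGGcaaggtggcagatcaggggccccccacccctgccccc
Myh7, chr14:54994627-54994876, minus strand: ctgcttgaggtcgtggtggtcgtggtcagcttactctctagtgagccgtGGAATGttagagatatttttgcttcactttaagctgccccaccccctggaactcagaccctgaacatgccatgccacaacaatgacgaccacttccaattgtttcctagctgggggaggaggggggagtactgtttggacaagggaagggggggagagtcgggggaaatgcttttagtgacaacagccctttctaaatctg
Myh6, chr14:54966646-54966857, minus strand: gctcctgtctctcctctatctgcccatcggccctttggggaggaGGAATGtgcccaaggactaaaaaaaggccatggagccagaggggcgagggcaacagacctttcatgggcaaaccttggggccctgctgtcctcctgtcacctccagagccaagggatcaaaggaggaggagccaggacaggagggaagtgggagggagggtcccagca
Each window of 250 bases was searched on both strands for the MCAT element CATTCC, which TEAD factors bind, the TATA box TATAAA, the CArG box, which serum response factor binds, and the MEF2 element. In Acta1 a CArG box lay at bases -73 to -64 from the start, an MCAT element at -46 to -41 and a TATA box at -7 to -2. Actc1 held a CArG box at -47 to -38. Myh7 held an MCAT element at -201 to -196 and Myh6 at -206 to -201, both on the opposite strand. The Myh7b window held none of the 4 motifs. Of 32851 promoters of the same length, 12.6% held the MCAT element, 12.4% the TATA box, 1.47% the CArG box and 2.92% the MEF2 element. The last 38 bases before the Myh6 start lie in an annotated exon of the same strand and are not printed. The Myh6 start used here lies inside the span of the gene given above, which ends at 54968017. Distances from Myh6 to other genes use the full span. For Myh7 the more upstream of its 2 listed starts was used.

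Levels are given as the processed signal divided by the 75th percentile of the array's probes, which lay between 206 and 249 signal units. Between 54.7% and 58.5% of probes were well above background. All 6 member probes were well above background on all 4 arrays, no spot of theirs was flagged as an outlier, and none was saturated. The highest reached 53.4% of the scanner's saturation value. Errors are the scanner software's own error of a spot, about 10% of the signal, which gives 0.20 for a log2 ratio. Among 31 bright probes printed in 10 spots, the log2 ratio of TAC to sham varied between spots by an SD of 0.044 at 2 weeks and 0.047 at 8 weeks. Neither error covers differences between mice.

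Myh7 and Acta1 were over 2-fold higher in TAC than in sham hearts at both times, and none of the other 3 genes changed by that much in either direction. These were 2 of 5 members higher and 0 of 5 lower. At 2 weeks 0.769% of the 29895 probes measured on both arrays were over 2-fold higher and 0.646% lower, and at 8 weeks the shares were 1.42% and 1.003% of 30411. The median log2 change of the 5 genes was 0.06 at 2 weeks and -0.07 at 8 weeks, against -0.02 and -0.04 over all probes.

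**Figure D1:**
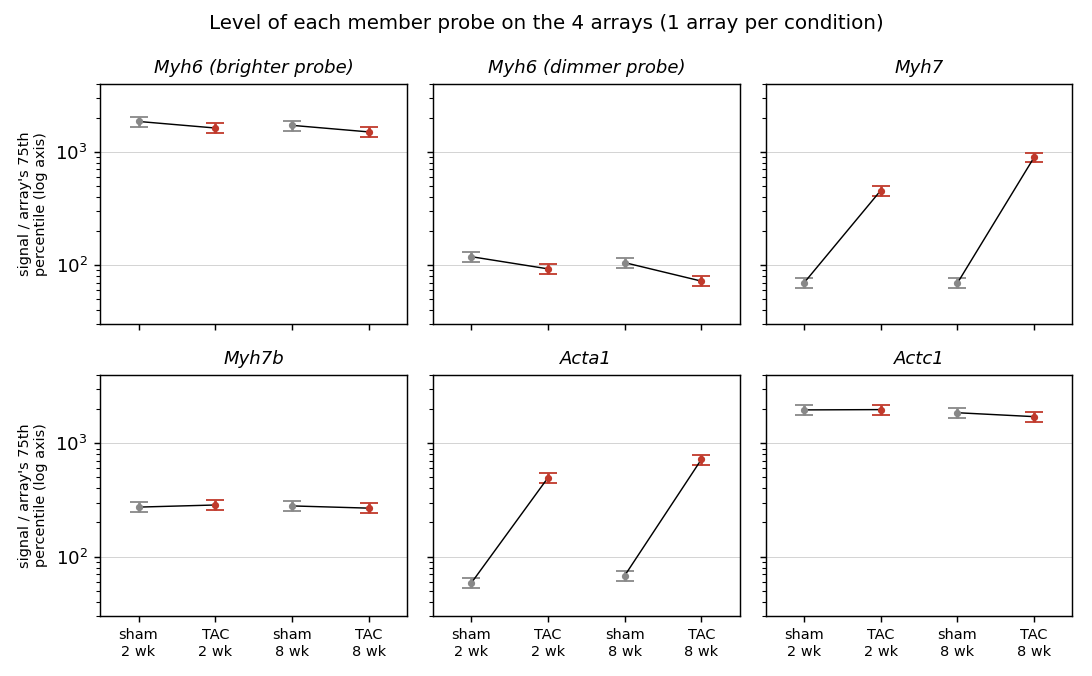
Level of each member probe on the 4 arrays, as signal divided by the array's 75th percentile, on a log axis. Grey points are sham and red points TAC hearts, 1 array each, bars are the scanner's error and lines join sham to TAC of the same time. Myh7 and Acta1 lie between 58.4 and 69.5 in sham hearts and between 455 and 895 in TAC hearts.

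The level of Myh7, the slow beta chain, was 69.5 in sham hearts and 455 in TAC hearts at 2 weeks. At 8 weeks it was 69.3 in sham hearts and 895 in TAC hearts. The sham levels were alike, and both TAC levels stood far above them. TAC hearts were therefore 6.55-fold above sham at 2 weeks (log2 2.71 ± 0.20, scanner error) and 12.9-fold at 8 weeks (3.69 ± 0.20). Of the probes measured on both arrays, 11 had a larger log2 change at 2 weeks and 4 at 8 weeks. Between the TAC arrays Myh7 was 1.97-fold higher at 8 than at 2 weeks (0.98 ± 0.20, and 1.25 without normalization between arrays), while between the sham arrays it differed by 0.00 ± 0.20. The log2 difference between TAC and sham was thus larger at 8 weeks by 0.98 ± 0.29, and 0.631% of 30892 probes were over 2-fold higher in TAC hearts at 8 than at 2 weeks. In order, Myh7 was highest in TAC hearts at 8 weeks, then in TAC hearts at 2 weeks, and the sham hearts did not differ beyond the scanner error.

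Acta1, skeletal alpha actin, had a level of 58.4 in sham and 498 in TAC hearts at 2 weeks. At 8 weeks its levels were 67.9 and 723. Again both TAC arrays stood far above both sham arrays. TAC hearts were 8.53-fold above sham at 2 weeks (log2 3.09 ± 0.20) and 10.6-fold at 8 weeks (3.41 ± 0.20), with 5 probes showing a larger rise at 2 weeks and 10 at 8 weeks. From 2 to 8 weeks Acta1 was 1.45-fold higher between the TAC arrays (0.54 ± 0.20) and 1.16-fold higher between the sham arrays (0.22 ± 0.20). The TAC difference was larger at 8 weeks by 0.32 ± 0.29, a smaller step than the 0.98 of Myh7.

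Set against each other, Myh7 was the smaller of these changes at 2 weeks, by 0.38 ± 0.29 on the log2 scale, and the larger at 8 weeks, by 0.28 ± 0.29. The difference exceeded the scanner error at 2 weeks and not at 8 weeks.

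**Figure D2:**
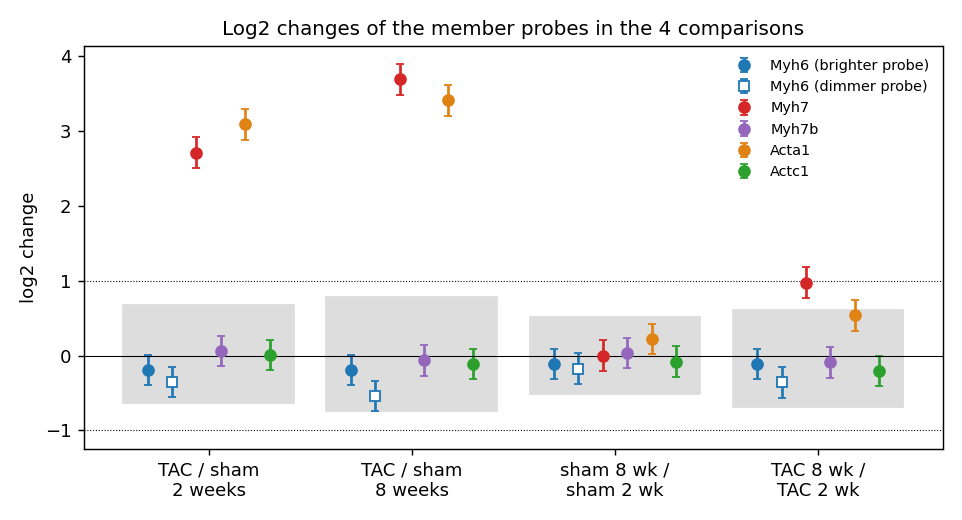
Log2 change of each member probe in the 4 comparisons. Bars are the scanner error, grey boxes hold the middle 95% of all probes measured on both arrays, and dotted lines mark 2-fold. Myh7 and Acta1 lie at 2.71 and 3.09 at 2 weeks and at 3.69 and 3.41 at 8 weeks, far outside the boxes, and the other probes lie inside them.

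Myh6, the fast alpha chain, was read by 2 probes that differed in size of change. On the brighter probe its level was 1854 in sham and 1622 in TAC hearts at 2 weeks, and 1713 and 1499 at 8 weeks. TAC hearts were lower at both times, by a log2 change of -0.19 ± 0.20 at 2 weeks and -0.19 ± 0.20 at 8 weeks. On the dimmer probe the levels were 119 and 92.5 at 2 weeks, and 105 and 72.1 at 8 weeks. Here TAC hearts were lower by -0.36 ± 0.20 and -0.54 ± 0.20. Both TAC arrays lay below both sham arrays on either probe, and all 4 log2 changes lay within the middle 95% of probes, which ran from -0.64 to 0.67 at 2 weeks and from -0.75 to 0.78 at 8 weeks. The brighter probe belongs to the 91 probes with a mean log2 signal over 17. Their median log2 change was -0.08 at 2 weeks and -0.14 at 8 weeks, and 13 and 24 of them had a lower one than this Myh6 probe. With a running median of probes of similar signal removed, its changes were -0.10 and -0.06, and without normalization that at 8 weeks was -0.02. The changes on the dimmer probe were -0.30 and -0.51 with the running median removed, and -0.37 at 8 weeks without normalization.

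Because both chains were read on the same arrays, their unequal change does not depend on a scaling factor per array. The ratio of Myh7 to Myh6 was 7.49-fold higher in TAC than in sham hearts at 2 weeks and 14.8-fold higher at 8 weeks with the brighter Myh6 probe (log2 2.90 ± 0.29 and 3.88 ± 0.29). With the dimmer probe it was 8.39-fold and 18.8-fold higher. Most of this lay in Myh7, with log2 changes of 2.71 and 3.69. Myh6 changed by -0.19 at both times on the brighter probe and by -0.36 and -0.54 on the dimmer. Log2 changes of the 91 bright probes had an SD of 0.10 and 0.11, against 0.34 and 0.39 over all probes. Whether bright probes understate a change was not tested. These are ratios of changes, and the share of each chain in the myosin of a heart cannot be read from the signals of different probes.

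Actc1, cardiac alpha actin, was read at 1974 in sham and 1986 in TAC hearts at 2 weeks. At 8 weeks it was 1864 and 1721. The log2 changes were 0.01 ± 0.20 and -0.12 ± 0.20, and 74 and 57 of the same 91 bright probes had a lower one. The largest difference of Actc1 was between the TAC arrays, -0.21 ± 0.20 from 2 to 8 weeks, where the bright probes had a median of -0.14. The ratio of Acta1 to Actc1 was 8.47-fold higher in TAC than in sham hearts at 2 weeks and 11.5-fold at 8 weeks (log2 3.08 ± 0.29 and 3.53 ± 0.29). As with the myosins, most of the difference lay in the isoform of the early heart.

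Myh7b had the flattest profile of the 5 genes. Its level was 273 in sham and 286 in TAC hearts at 2 weeks, and 280 and 268 at 8 weeks. The log2 changes of 0.06 ± 0.20 and -0.07 ± 0.20 lay on opposite sides of 0 and within the scanner error, and over the other settings the change at 8 weeks ran from -0.08 to 0.10. Its profile was unlike that of its relative Myh7, which spanned 3.69 log2 units over the 4 arrays where Myh7b spanned 0.09.

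**Figure D3:**
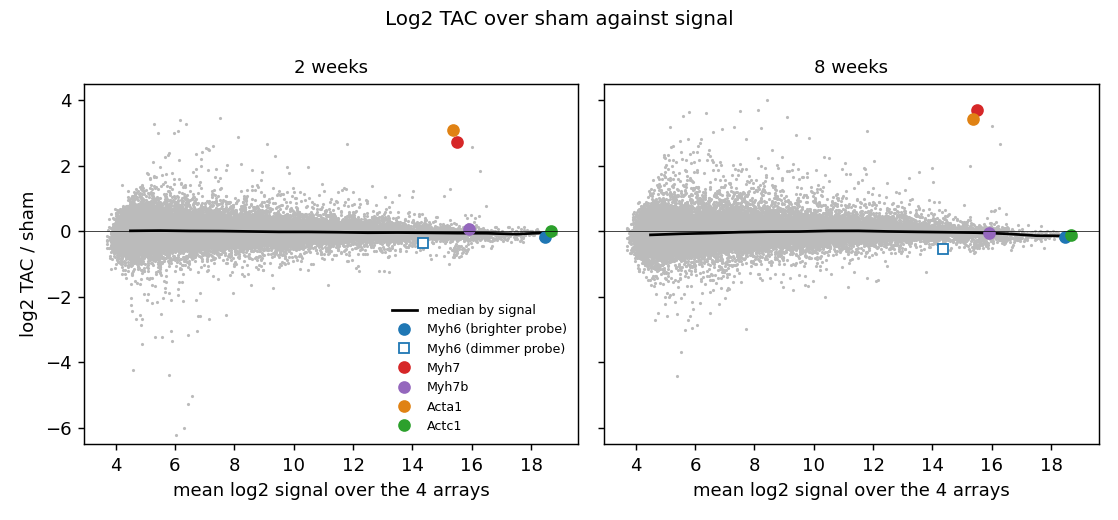
Log2 TAC over sham against the mean log2 signal of each probe at 2 weeks (left) and 8 weeks (right), for 29262 probes well above background on all 4 arrays (grey). The black line joins the medians of probes in bins of 1 log2 unit of signal. Myh6 on its brighter probe and Actc1 sit among the brightest probes, near the line, whereas Myh7 and Acta1 stand more than 2 log2 units above it.

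Time without TAC moved none of the members by 2-fold. Between the sham arrays the log2 changes of the 6 probes from 2 to 8 weeks ran from -0.17 for Myh6 on its dimmer probe to 0.22, and the largest was that of Acta1. Over all 29689 probes 0.394% were over 2-fold higher at 8 weeks and 0.344% lower. Between the TAC arrays they ran from -0.36 ± 0.20 for Myh6 on its dimmer probe, against -0.11 on the brighter, to 0.98 for Myh7, so 0 of 5 genes passed 2-fold, and 0.576% of probes were over 2-fold lower. Myh7 lay just under that cut. It passed with quantile normalization (1.01), scaling to the median (1.07) and normexp background correction (1.06). It also passed with the running median removed (1.015) and without normalization (1.25), while the other settings stayed below. The comparisons over time share arrays with those of TAC against sham.

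Mhrt, a noncoding RNA transcribed from the strand opposite Myh7, was looked at after its values were seen. It lies on chromosome 14 from 54968787 to 54974349, where it overlaps 3666 bases of Myh7 and begins 769 bases from Myh6. Its level was 87.7 in sham and 57.5 in TAC hearts at 2 weeks, and 91.1 and 38.3 at 8 weeks. TAC hearts were lower at both times, by a log2 change of -0.61 ± 0.20 at 2 weeks and -1.25 ± 0.20 at 8 weeks, when sham hearts were 2.38-fold higher. Myh7 and Mhrt therefore lay on opposite sides of sham at both times, and both were farther from it at 8 weeks. Cmtm5, whose gene overlaps Myh6 by 1125 bases, differed by -0.04 and 0.12 on its 2 probes at 2 weeks, and by -0.51 and -0.55 at 8 weeks (log2).

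The profiles nearest to those of Myh7 and Acta1 over the 4 arrays were sought among 18805 named probes well above background on all of them, by the distance between centred log2 levels. The nearest to Myh7 was Dio2, the enzyme that activates thyroid hormone, at a distance of 0.26. Acta1 itself lay at 0.35 from Myh7. Also among the nearest 5 were Ltbp2, a matrix protein of microfibrils, at 0.49, Lman1l at 0.61 and Postn, a matricellular protein of activated fibroblasts, at 0.63. Those of Acta1 included Dio2 at 0.57, Egr2, an immediate early factor, at 0.58, Ltbp2 at 0.65 and Postn at 0.66. In TAC hearts Dio2 was 5.26-fold and 12.5-fold above sham. Dio2 was dim, with a level of 0.089 in sham hearts at either time, and with normexp background correction its log2 changes fell from 2.40 and 3.64 to 1.01 and 1.94. Those of Egr2 fell from 3.07 and 2.59 to 1.36 and 1.31, and neither gene was then among the nearest 5. Lman1l was named through the probe of lower mean log2 signal, and it too left the nearest 5 to Myh7 with normexp. Its other probe, which stands for the gene elsewhere, changed by only 0.12 and 0.10. Each profile has 4 points, and the likeness is a description.

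**Figure D4:**
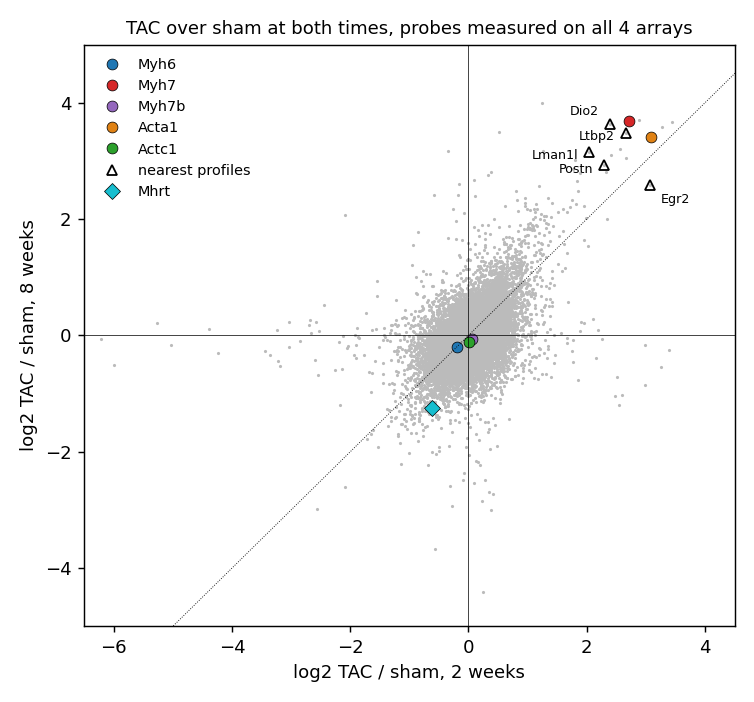
Log2 TAC over sham at 8 weeks against that at 2 weeks for the probes well above background on all 4 arrays (grey), with the members in colour, Mhrt as a diamond and the named nearest profiles as triangles. The dotted line marks equal change. Myh7 lies above the line at 2.71 and 3.69, Acta1 close to it at 3.09 and 3.41, and Myh6, Myh7b and Actc1 near 0.

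Of 19 genes reported to regulate these promoters, directly or indirectly, 1 was over 2-fold higher at either time and none was lower. These calls are on the probe that stands for the gene, with 18 of the 19 measured on both arrays at 8 weeks. Over all probes, 0.769% at 2 weeks and 1.42% at 8 weeks were higher and 0.646% and 1.003% lower. The one that was higher was Dio2, an enzyme that activates thyroid hormone and not a factor that binds promoters. The purine-rich element binding proteins, which restrain Myh6, had log2 changes of -0.04 and 0.10 for Pura and 0.08 and 0.10 for Purb. Srf, which binds CArG boxes, changed by 0.16 and 0.17, and Thra, the main thyroid hormone receptor of the heart, by -0.16 and -0.24. Thrb, the other receptor, was lower on both probes, by -0.75 and -0.62 on the brighter and by -0.43 and -1.06 on the dimmer. Hopx, also in the list, was lower on both probes too, by -0.61 and -0.66 on the brighter and by -0.49 and -0.68 on the dimmer. The median of the list was -0.04 at 2 weeks and -0.08 at 8 weeks, against -0.02 and -0.04 over all probes.

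No other sarcomeric myosin heavy chain was higher in TAC hearts on a probe well above background. Of 7 genes, Myh1, Myh2, Myh3, Myh4, Myh13 and Myh15, the chains of fast, embryonic and extraocular muscle, were not well above background on any array. Myh8, the perinatal chain, gave probes that differed widely in signal. The level of its brightest ran from 794 to 1039 and that of another from 15.5 to 20.2, while the remaining pair was at or near background. The log2 changes were -0.14 and -0.30 on the brightest and -0.21 and -0.25 on the other. The transcript of Myh8 shared at most 47 unbroken bases with those of Myh6 and Myh7, and its coding sequence was 78.3% identical to each. Whether a Myh8 probe also reads those transcripts was not checked, so its signal cannot be read as Myh8 alone. Of the 8 smooth muscle and nonmuscle myosins and actins, Actg2, smooth muscle gamma actin, was over 2-fold higher at 2 weeks (log2 1.03, and 0.76 with normexp), and none was at 8 weeks, when Actg2 stood at 0.53. Acta2 was -0.01 and -0.40. The medians of this list were 0.14 and 0.23.

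The RNA of the proteins that work beside the members changed less than that of Myh7 and Acta1. None of the 16 measured thick and thin filament partners, from light chains to titin, passed 2-fold at either time, with medians of 0.00 and 0.03 and a widest change of -0.52. A dimmer probe of Tpm1, tropomyosin, stood at -0.02 and -1.17, against -0.07 and -0.18 on its brightest. None of 11 myosin and actin assembly genes did so, with medians of -0.07 and 0.01. The furthest of them was Lmod2, an actin filament nucleator, at 0.61 at 8 weeks. The share of all probes over 2-fold higher was 0.769% at 2 weeks and 1.42% at 8 weeks, so 0 among so few genes does not set these lists apart.

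**Figure D5:**
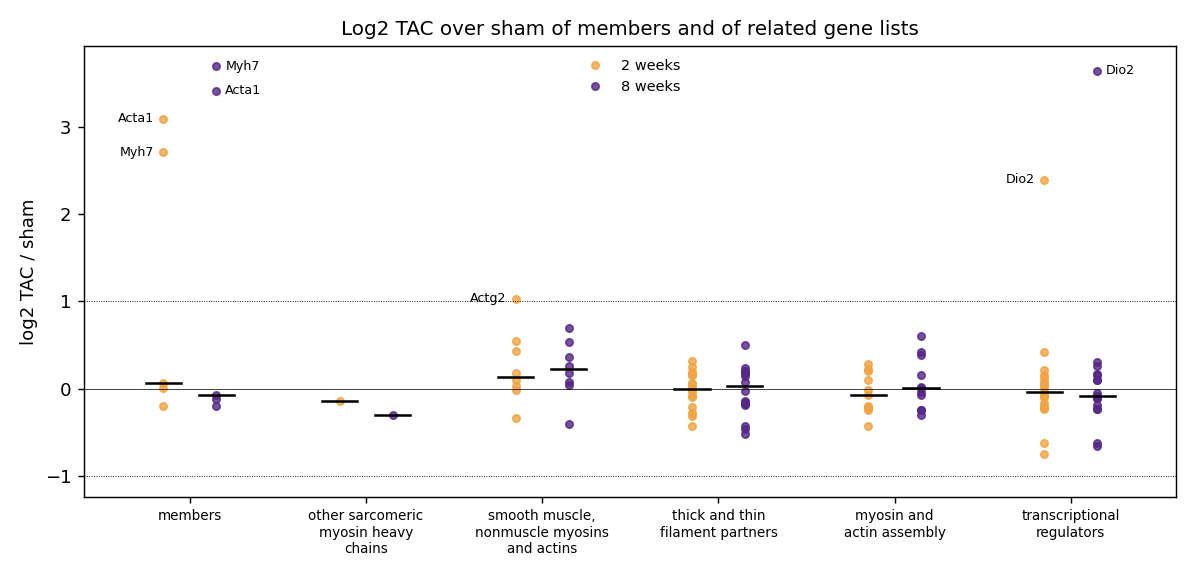
Log2 TAC over sham at 2 weeks (orange) and 8 weeks (purple) for the members and 5 lists of related genes, each point being the probe that stands for a gene, where it was well above background on both arrays. Black bars are medians, dotted lines mark 2-fold, and genes beyond them are named. Only Myh7, Acta1, Dio2 and, at 2 weeks, Actg2 lie beyond 2-fold.

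The hearts carried the RNA their label implies. All 10 cardiomyocyte markers were well above background on all arrays, and their summed level was 7233 in sham and 6802 in TAC hearts at 2 weeks and 6872 and 6133 at 8 weeks. Acta1 is also the actin of skeletal muscle, and Myh7 is also a chain of slow muscle. Of 8 fast skeletal markers, Mylpf and Actn3 were at background on all arrays. The summed level was 19.1 in sham and 21.3 in TAC hearts at 2 weeks, and nearly equal at 19.2 and 19.4 at 8 weeks. Mybpc2 alone went from 2.14 to 8.28 and from 2.12 to 6.61, more than the sum rose. Of the 6 measured markers 1 was over 2-fold higher at either time, Mybpc2 at 1.95 and 1.64 (log2), and none lower. Their median log2 change was -0.03 and -0.43. Atp2a1 stood at -0.49 and -0.41 and Tnnt3 at 0.54 and 0.35, with Tnni2 at -0.54 and Pvalb at -0.46 at 8 weeks. These values are of the probes that stand for the genes. Dimmer probes of Tnnt3 and Pvalb, well above background on only 3 and 1 of the arrays, were not counted. Of 6 atrial markers, Mybphl was at background throughout and the summed level was 3.60 in sham and 4.34 in TAC hearts at 2 weeks and 5.03 and 4.61 at 8 weeks. Dkk3 differed by 1.63 and 1.17 (log2), while between the sham arrays it was higher by 1.27 at 8 than at 2 weeks. Myl4 differed by -0.01 and -0.52. At 8 weeks Myl7 was at least 3.64-fold and Sln at least 2.55-fold higher in sham hearts, their TAC spots being not well above background. Fibroblast markers moved with TAC, from a summed level of 207 to 287 at 2 weeks and from 232 to 338 at 8 weeks, with Postn at 2.29 and 2.92 and Col1a1 at 0.97 and 1.20. Macrophage markers went from 36.7 to 45.5 and from 37.7 to 49.1. The part of these cell types in the results was not tested. In RNA of heart tissue, more cells of a type and more RNA per cell cannot be told apart.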

How the data were processed

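Total RNA of mouse hearts was labelled with Cy3 and hybridized to single-colour Agilent SurePrint G3 Mouse GE arrays. The files deposited by the authors give each spot's processed intensity, from which background was subtracted, with no scaling between arrays. The file headers name Feature Extraction 10.7.3.1, and the submitters' processing notes list version 9.1. The authors' table of the whole series repeats these intensities, multiplied by a constant for each array. GeneSpring was named by the authors for their analysis, with no normalization stated.

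All arrays came from 1 slide and 1 scan. Signals were divided by the 75th percentile of all probes other than controls on that array, without outlier spots, and taken to log2. The probe with the highest mean stood for a gene, except in the search for nearest profiles, which took any named probe. All probes of the members are given. Of 55681 probes, 29358 were named by accession through RefSeq and GENCODE tables (GRCm38). Named outside the members were genes of each list over 2-fold in either TAC comparison, Pura, Purb, Thra and Srf, and the 5 nearest profiles to each member that spanned over 1 log2 unit, of which 1 gene is not reported here. Thrb, Hopx, Myh8, Acta2, Lmod2, Tpm1, Mhrt, Cmtm5, the single markers of other cell types and the genes of the closing section were named after their values were seen. The members and lists were chosen with earlier results of these data known.

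No test was made, since each condition has 1 array, and the number of arrays limits the precision. Called means over 2-fold with both spots well above background. The scaling and calling were tested on simulated data with 200 changed probes. All of these were set to change by more than the 2-fold cut, so the simulation checked the code and not the calls on the real arrays. Alternatives were other normalizations, normexp with offset 50 (limma 3.58.1, R 4.3.3), the deposited table, outlier spots kept, other filters and folds of 1.5 and 3. Removal of a running median over 501 probes of similar signal, and all alternatives for genes outside the members, were added after seeing the data. Noncoding probes near the members, which the files place on mm9, were not searched, since the genome used here is GRCm38. Python 3.11.15 with pandas 2.3.3 and numpy 2.4.6 was used.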

Additional observations from a re-analysis of the deposited data

How the results depend on the processing

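Myh7 ranged from 2.67 to 2.79 and Acta1 from 3.05 to 3.16 at 2 weeks over 9 alternatives, and from 3.67 to 3.86 and from 3.39 to 3.58 at 8 weeks. Myh6 ranged from -0.27 to -0.10 and from -0.37 to -0.02 on its brighter probe, with the mean of both probes among the settings. Its dimmer probe ranged from -0.40 to -0.29 and from -0.56 to -0.37 over 8 alternatives. Both probes of Myh6 stayed below 0 in TAC hearts under each, while Actc1 at both times and Myh7b at 8 weeks changed sign. No TAC over sham value of a member moved beyond the scanner error. Without normalization the log2 change from TAC 2 weeks to TAC 8 weeks moved to 0.16 for Myh6, 1.25 for Myh7, past 2-fold, 0.18 for Myh7b, 0.81 for Acta1 and 0.064 for Actc1, and with quantile normalization Actc1 moved to 0.043. Unscaled, the 75th percentiles differ by 0.17 between TAC and sham at 8 weeks and by 0.27 between the TAC arrays (log2). These alternatives left the array with the highest 75th percentile unscaled or set the brightest probes alike. From TAC 2 weeks to TAC 8 weeks Myh7 also passed 2-fold, by less, in other settings. Its log2 change was 1.01 with quantile normalization, 1.07 with scaling to the median, 1.06 with normexp and 1.015 with the running median removed. The probes over 2-fold higher and lower depended more on the settings. In the order TAC over sham at 2 weeks, TAC over sham at 8 weeks, sham over time and TAC over time, they were 230 and 193, 431 and 305, 117 and 102 and then 195 and 178 in the report. With normexp they were 76 and 49, 188 and 58, 28 and 33 and then 54 and 27. With only the brighter array above background they were 1052 and 557, 1050 and 985, 832 and 475 and then 661 and 921. At 1.5-fold they were 1085 and 937, 1366 and 1474, 516 and 536 and then 845 and 1265, and at 3-fold 57 and 64, 142 and 62, 40 and 45 and then 49 and 28. Without normalization they were 661 and 184 for TAC over sham at 8 weeks and 455 and 68 for TAC over time. No paired analysis was made, since each group has 1 array and the labels pair none by a replicate number.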

Other observations

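TEAD factors bind MCAT elements such as those found before Acta1, Myh7 and Myh6, and Vgll proteins are their cofactors. Their levels are given as values chosen after they were seen. Tead1 had log2 changes of 0.21 and 0.26 on its brightest probe, Tead2 of -0.05 and 0.40, Tead3 of -0.13 and 0.13, and Tead4, near background, of 0.46 and 0.76. Vgll4 changed by 0.35 and 0.06. Vgll2 was at background in sham hearts at 2 weeks and at least 2.53-fold higher in TAC hearts, while with normexp background correction the log2 change was 0.32. At 8 weeks its level was 0.078 in sham and 3.22 in TAC hearts, which is 41.4-fold, and the log2 change of 5.37 became 3.11 with normexp background correction. The other cofactors Vgll1 and Vgll3 were at or near background.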
